A study of Mus musculus with 17 samples.

Results

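Transcripts of 46 cell cycle genes were followed in every library of a mouse study of apolipoprotein E (ApoE), the main lipid-carrying protein that astrocytes release. The genes were taken by name from the deposited count tables, and all 46 were present in each of the 4 tables, out of 36271 gene identifiers listed in any of them. They fall into 15 genes of DNA replication (Mcm2 to Mcm7, Pcna, Rrm1, Rrm2, Tyms, Gins2, Cdt1, Uhrf1, Prim1 and Pole) and 31 genes of mitosis, from the cyclins and mitotic kinases to spindle motors and kinetochore proteins. The rule takes genes by name and uses no measured value, but the list was drawn up with earlier results of these data known. Of the 17 RNA-seq libraries, 14 came from primary neurons cultured from the brain of C57BL/6 mice and 3 from the hippocampus of C57BL/6 mice. The cultures form 3 experiments. In the first, neurons given ADM, which the labels do not spell out, stand beside their control, with 2 libraries each. In the second, here set 1, neurons given ApoE particles stand beside their control, again with 2 libraries each. In the third, here set 2, there are 2 control libraries, 2 with ApoE particles and 2 with an ApoE reconstituted particle. The hippocampus has 3 libraries, 1 per group. A control shRNA was used in 2 of them, 1 without FC and 1 with it, and an ApoE shRNA in the third, also with FC; the labels do not spell out FC either. The labels used here give no dose, duration, age, shRNA vector or number of pooled animals, and whether a group's libraries stem from separate cultures is not stated, so the p-values measure the spread between these libraries, which may be technical.

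A dividing cell first licenses its replication origins by loading the Mcm2-7 helicase with the help of Cdt1, then copies its DNA with polymerases held by the Pcna clamp, fed by the nucleotide enzymes Rrm1, Rrm2 and Tyms. It then condenses and separates the chromosomes under Cdk1 with the B-type cyclins, Plk1 and the Aurora kinases, and ends mitosis when Cdc20 and Ube2c mark cyclins and other proteins for destruction. The replication genes are classic targets of E2F factors at the G1/S boundary. Many mitotic genes are controlled later, by MuvB complexes with B-Myb and Foxm1, through promoter elements called CHR and through CCAAT boxes bound by NF-Y. Mature neurons do not divide, and in a brain culture these transcripts are known mainly from progenitors and glial cells.

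These elements can be read in the members' own promoters. The 150 bases upstream of the start site are shown for 7 genes on which the results turn, written in the direction of the gene, with matches to E2F, CHR and CCAAT motifs on either strand in capitals. Mcm5, Mcm6 and Pcna represent the replication genes, and Mki67, Top2a, Cdk1 and Ccnb1 the mitotic genes. The stretches lie at chr8:75109359-75109508 on the plus strand for Mcm5 and, on the minus strand, at chr1:128359706-128359855 for Mcm6, chr2:132253181-132253330 for Pcna, chr7:135716380-135716529 for Mki67, chr11:99024190-99024339 for Top2a, chr10:69352913-69353062 for Cdk1 and chr13:100786487-100786636 for Ccnb1 (RefSeq, build GRCm38.p6).
Mcm5: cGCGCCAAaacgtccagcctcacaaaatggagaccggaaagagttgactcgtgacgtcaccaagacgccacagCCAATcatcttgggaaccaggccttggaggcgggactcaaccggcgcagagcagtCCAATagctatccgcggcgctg
Mcm6: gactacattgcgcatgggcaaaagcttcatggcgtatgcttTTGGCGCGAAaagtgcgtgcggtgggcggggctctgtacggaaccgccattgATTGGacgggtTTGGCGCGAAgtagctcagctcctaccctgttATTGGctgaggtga
Pcna: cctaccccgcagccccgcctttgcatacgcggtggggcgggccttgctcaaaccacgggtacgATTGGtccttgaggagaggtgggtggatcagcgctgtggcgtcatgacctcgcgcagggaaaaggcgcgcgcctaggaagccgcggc
Mki67: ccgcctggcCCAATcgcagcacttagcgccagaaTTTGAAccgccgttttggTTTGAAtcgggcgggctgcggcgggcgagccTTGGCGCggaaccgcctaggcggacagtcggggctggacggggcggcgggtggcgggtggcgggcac
Top2a: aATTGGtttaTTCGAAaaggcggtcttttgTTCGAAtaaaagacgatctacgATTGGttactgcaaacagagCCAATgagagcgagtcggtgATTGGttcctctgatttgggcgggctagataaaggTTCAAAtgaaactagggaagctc
Cdk1: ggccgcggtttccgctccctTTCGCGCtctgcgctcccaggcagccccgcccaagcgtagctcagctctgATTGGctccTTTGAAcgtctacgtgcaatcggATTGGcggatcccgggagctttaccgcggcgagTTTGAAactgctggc
Ccnb1: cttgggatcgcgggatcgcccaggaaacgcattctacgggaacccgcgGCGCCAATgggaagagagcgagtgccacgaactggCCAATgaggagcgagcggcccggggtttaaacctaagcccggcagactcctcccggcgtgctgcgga
The Mcm6 stretch holds 4 E2F matches, as 2 overlapping pairs on opposite strands, and no CHR. The Top2a stretch is the reverse case, with 3 CHR matches, 4 CCAAT boxes and no E2F match, and Cdk1 carries all 3 kinds. The Pcna stretch holds a single CCAAT box and neither of the others. The RefSeq start site used lies 134 bases inside the gene for Pcna and 84 bases inside for Ccnb1, by the gene coordinates of the counts. Both stretches thus lie partly within the gene.

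The search covered 300 bases, 250 before and 50 after each start site. The E2F motif was searched as TTCCCGC or as TTGGCGC or as TTCGCGC or as TTGCCGC. The CHR was searched as TTTGAA or as TTCGAA, and the CCAAT box by the letters of its name. Both strands were read, and an E2F match read on the other strand can run into a CCAAT box, in which case the shared letters count for both. The promoter table matched 38 of the 46 members, with 14 promoters for 12 replication genes and 28 promoters for 26 mitotic genes. An E2F match was present in 11 of 14 replication promoters (78.6%), 6 of 28 mitotic promoters (21.4%) and 9.57% of all 32851 promoters. A CHR match was present in 2 of 14 replication promoters (14.3%), 22 of 28 mitotic promoters (78.6%) and 19.2% of all promoters. A CCAAT box was frequent in both classes, in 12 of 14 (85.7%) and 22 of 28 (78.6%), against 37.4% of all promoters. These are letter matches, not measured binding sites.

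**Figure D1:**
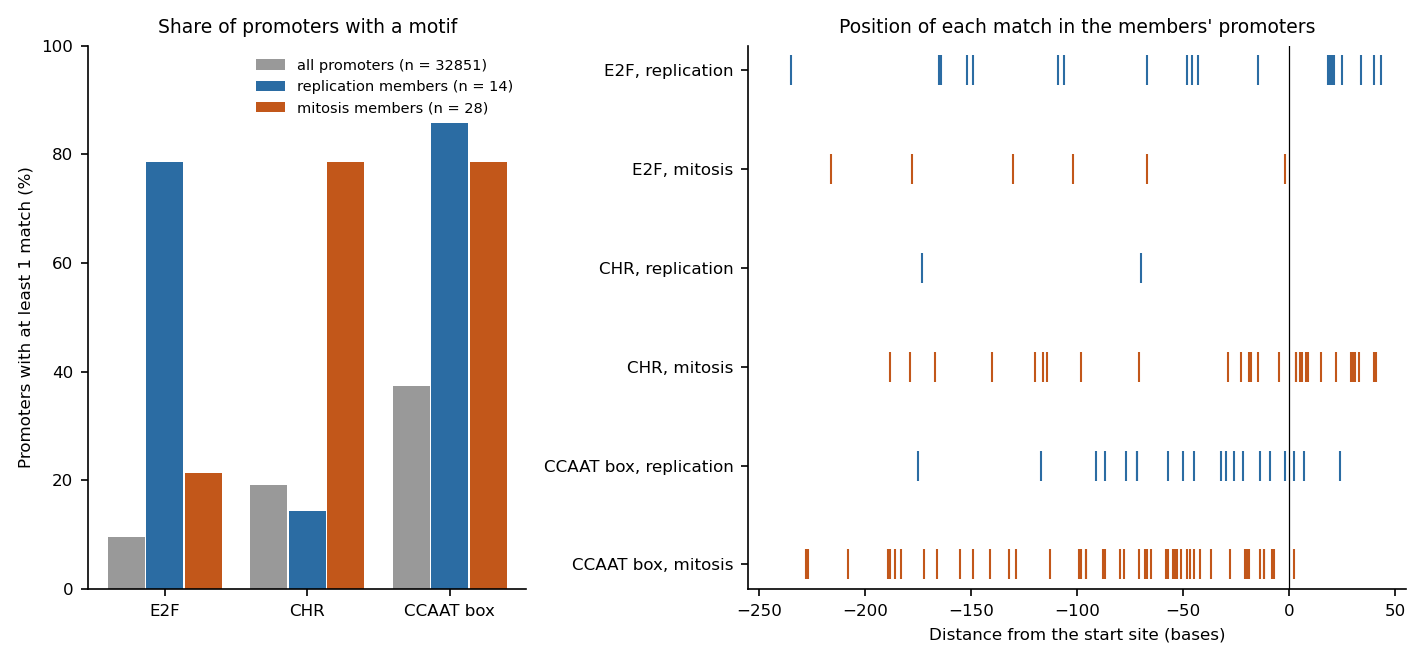
Left, the share of promoters (%) with at least 1 match to each motif for all 32851 promoters (grey), the replication members (blue, 14 promoters) and the mitotic members (orange, 28 promoters). Right, the distance in bases of every match from the start site, 1 tick a match; E2F matches fill the replication rows and CHR matches the mitotic rows, with shares of 78.6% in each.

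Library totals ranged from 14624082 to 19142353 counts. Some libraries stand apart. The second ADM library had 31 of 31 mitotic and 14 of 15 replication members above the first ADM library, by a median log2 ratio of 1.26 and 1.05, and it held 1223 CPM (counts scaled to a library total of 1000000) of 12 vessel and fibroblast markers against 24.5 to 73.6 CPM in the other 3 libraries of that experiment. Its 2 controls also differed, with 31 of 31 mitotic members higher in the second (median log2 ratio 0.82). The 11 neuron markers summed to between 5473 and 7776 CPM in the 14 culture libraries, so neuronal transcripts were present throughout. Astrocyte markers (12 genes) summed to between 899 and 5591 CPM and neural progenitor markers (11 genes) to between 2378 and 4653 CPM, so transcripts typical of astrocytes were also present in cultures labelled as neurons; the progenitor list includes Dcx, which young neurons express too.

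All 46 members had counts in every culture library. Per kilobase of exon, averaged over the 3 culture controls, Pcna was the most abundant member at 30.8 CPM per kilobase, followed by the ribonucleotide reductase subunit Rrm2 at 13.6 and the helicase subunits Mcm7, Mcm6 and Mcm4 at 9.16, 7.48 and 7.33. The highest mitotic members on the same scale were Top2a, the topoisomerase that untangles sister chromatids, at 6.27, and Cdc20, an activator of the anaphase-promoting complex, at 6.19. The summed level of the 15 replication members was 418 and 423 CPM in the ADM controls, 349 and 311 CPM in the set 1 controls and 423 and 358 CPM in the set 2 controls. The 31 mitotic members summed to 305 and 541 CPM, 407 and 345 CPM, and 554 and 464 CPM in the same libraries. On the replication sum the set 1 controls lay below those of the other experiments. On the mitotic sum they lay below the set 2 controls, and the wide range of the ADM controls overlapped both.

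**Figure D2:**
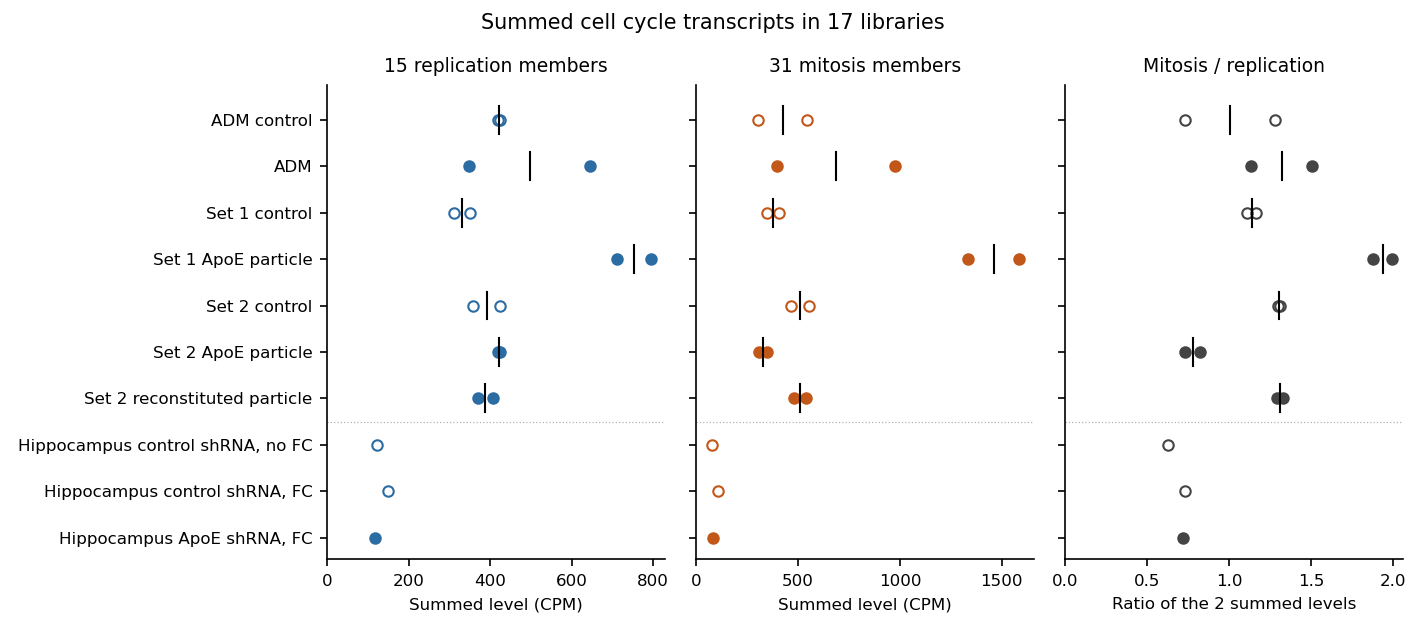
Summed level (CPM) of the 15 replication members and of the 31 mitotic members, and the ratio of the mitotic to the replication sum, in each of 17 libraries; 1 point is 1 library, open points are controls and vertical bars are group means. The set 1 ApoE particle libraries lie above every other library on both sums. The set 2 ApoE particle libraries lie below their controls on the mitotic sum and on the ratio, but not on the replication sum.

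In set 1, neurons given ApoE particles held more transcript of nearly every member than their controls. The summed replication level was 711 and 795 CPM with the particle against 349 and 311 CPM without it, and the summed mitotic level was 1337 and 1584 CPM against 407 and 345 CPM. The ratio of the mitotic to the replication sum was 1.88 and 1.99 with the particle and 1.17 and 1.11 without it. With 2 libraries against 2, an exact two-sided permutation test of such a sum cannot go below p = 0.333, so the tests below are those of single genes in edgeR's quasi-likelihood fit over all genes. That fit called 14 of 15 replication members and 31 of 31 mitotic members as risen at an adjusted p below 0.05. Of all 16475 genes tested, 18.9% rose and 17.4% fell, 36.4% in either direction. The groups did not overlap for any of the 46 members, all higher with the particle, where 33.8% of all genes were higher and 34% lower without overlap. The median log2 fold change was 1.25 for the replication members and 1.86 for the mitotic members, against -0.0059 for all genes tested.

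The origin licensing genes rose. Mcm5, a subunit of the replicative helicase, was at 10.6 and 10.6 CPM in the controls and at 34.3 and 37.3 CPM with the particle, a log2 fold change of 1.65 ± 0.12 (SE, n = 2 libraries a group, as for all folds in cultures; edgeR adjusted p = 4.0e-06). Mcm2 was at 15.6 and 14.4 CPM in the controls and at 34.3 and 42.0 CPM with the particle (log2 fold change 1.25 ± 0.13, adjusted p = 3.2e-05). For both genes the particle libraries lay well above the controls. The other 4 helicase subunits also rose, Mcm3 by 1.39 ± 0.13, Mcm4 by 1.12 ± 0.10, Mcm6 by 1.05 ± 0.10 and Mcm7 by 0.73 ± 0.10 on the log2 scale. Cdt1, which loads the helicase, rose by 1.46 ± 0.24 on the log2 scale, and the GINS subunit Gins2 by 1.25 ± 0.21, though 67.3% of the exon bases of Gins2 are shared with the antisense gene Gse1.

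The nucleotide and fork genes followed. Rrm2, the S-phase subunit of ribonucleotide reductase, was at 34.3 and 26.0 CPM in the controls and at 85.9 and 97.6 CPM with the particle (log2 fold change 1.51 ± 0.12, adjusted p = 7.0e-06 in edgeR). Uhrf1, which carries DNA methylation through replication, rose the most in the class, from 13.3 and 12.7 CPM to 39.3 and 49.5 CPM (1.67 ± 0.13). Pcna rose less, from 78.9 and 70.2 CPM to 126 and 128 CPM (0.67 ± 0.09), and reads of its 2 named pseudogenes cannot be set apart here. The same limit holds for Tyms, Ccnb1 and Ccnb2, with 1 named pseudogene each. Rrm1, Tyms and the leading-strand polymerase gene Pole rose by 1.18 ± 0.09, 1.31 ± 0.17 and 1.32 ± 0.19 on the log2 scale. Prim1, the small primase subunit, was the single uncalled member, at 13.4 and 13.3 CPM against 17.2 and 19.2 CPM (log2 fold change 0.34 ± 0.14, adjusted p = 0.071).

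The proliferation marker, the topoisomerase and the drivers of mitotic entry also rose. Top2a was at 46.9 and 42.7 CPM in the controls and at 180.4 and 224 CPM with the particle (log2 fold change 2.07 ± 0.11, adjusted p = 9.6e-07 in edgeR). Mki67, whose protein coats mitotic chromosomes and is the usual marker of cycling cells, was at 38.8 and 36.7 CPM against 134 and 154 CPM (1.83 ± 0.10). Cdk1, the kinase that drives entry into mitosis, was at 12.01 and 9.83 CPM against 38.9 and 49.5 CPM (1.92 ± 0.15). Its partner Ccnb1 was at 14.4 and 10.3 CPM against 51.9 and 63.3 CPM (2.13 ± 0.15). In each of these 4 genes both particle libraries stood well above both controls.

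The other mitotic members rose by between 1.15 and 2.57 on the log2 scale. The upper end was held by Kif20a, a kinesin of the central spindle, at 5.63 and 2.71 CPM against 24.6 and 28.0 CPM (log2 fold change 2.57 ± 0.24); 29.3% of its exon bases are shared with the antisense gene Cdc23. The checkpoint kinase Ttk followed at 2.30 ± 0.22 and Cdc20 at 2.25 ± 0.15. Cenpf, a large kinetochore protein, rose by 2.11 ± 0.12 and Kif11, the kinesin that pushes the spindle poles apart, by 1.81 ± 0.12. The lower end was Racgap1, a cytokinesis regulator, which rose by 1.15 ± 0.09, from 36.4 and 33.1 CPM to 82.6 and 83.4 CPM. Plk1 rose by 1.45 ± 0.14, the Aurora kinases Aurka and Aurkb by 1.62 ± 0.17 and 1.86 ± 0.16, and Foxm1, itself a transcription factor of this program, by 1.56 ± 0.15.

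Genes of other cell types moved in the same libraries. Microglia markers summed to 127 and 107 CPM in the set 1 controls and to 419 and 414 CPM with the particle, and 12 of 13 tested rose. Astrocyte markers went from 4139 and 3761 CPM to 5591 and 5383 CPM, with 9 of 12 risen and 1 fallen, and neural progenitor markers from 2378 and 2420 CPM to 3898 and 4063 CPM, with 5 of 10 risen and 1 fallen. Vessel and fibroblast markers went from 89.9 and 68.5 CPM to 297 and 328 CPM, with 5 of 10 risen and 1 fallen. Choroid plexus and ependymal markers went from 90.6 and 57.5 CPM to 208 and 229 CPM, with 4 of 5 risen, and oligodendrocyte lineage markers from 287 and 231 CPM to 349 and 371 CPM, with 4 of 9 risen and 4 fallen. Neuron markers went from 7464 and 7627 CPM to 5654 and 5473 CPM, with 10 of 11 fallen. The part of these cell types in the rise of the cell cycle genes was not tested, and in bulk RNA more cells of a type and more RNA per cell cannot be told apart. Scaling by library totals instead of TMM (the trimmed mean of M-values) moved the median of all genes to 0.098 and the split of all calls from 3119 risen and 2874 fallen to 3832 and 2009. Under that scaling the medians were 1.35 for replication and 1.96 for mitosis, and 15 and 31 members were called as risen.

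**Figure D3:**
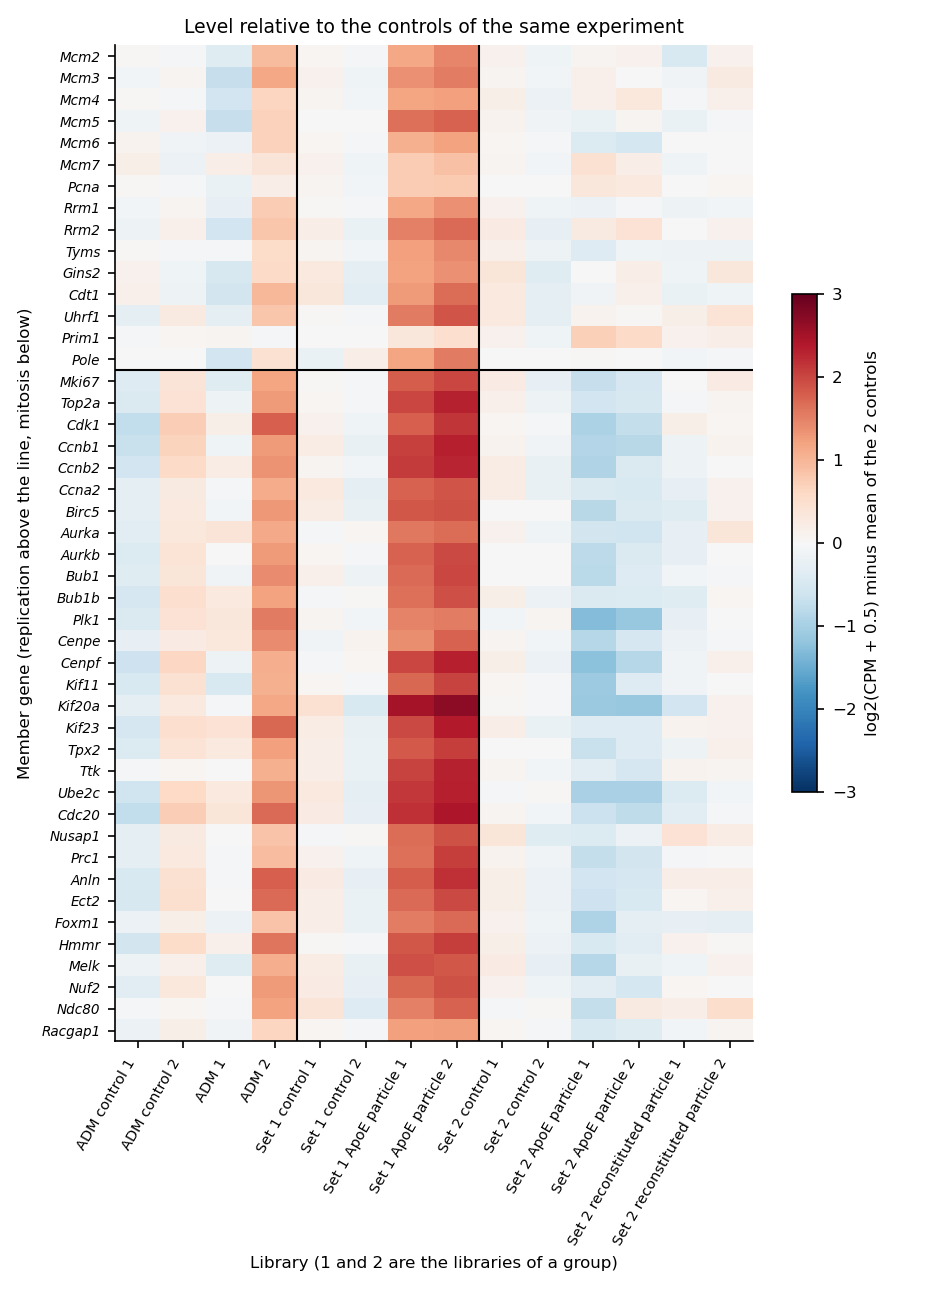
Level of each member in each culture library, as log2(CPM + 0.5) minus the mean of the 2 controls of the same experiment; replication members lie above the horizontal line and mitotic members below, and vertical lines separate the experiments. Set 1 particle libraries are red throughout, set 2 particle libraries are mostly blue among mitotic members, and the second ADM library differs from the first.

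In set 2 the same labelled treatment went with a different pattern. Mitotic transcripts were lower with the ApoE particle and replication transcripts were not. The mitotic sum was 306 and 348 CPM with the particle against 554 and 464 CPM in the controls, without overlap, while the replication sum was 419.9 and 423 CPM against 423 and 358 CPM, with overlap. The ratio of the mitotic to the replication sum was 0.729 and 0.823 with the particle, and 1.31 and 1.29 in the controls. Of the 31 mitotic members 23 fell, none rose, and all 31 estimates were below 0, with a median log2 fold change of -0.62 against 0.00067 for all genes. Of all 16388 genes tested, 12.1% fell and 10% rose, 22.1% in either direction. For 28 of the 31 mitotic members both particle libraries were below both controls, against 30.9% of all genes, and 4 replication members lay above their controls without overlap, against 30.1%. Of the 15 replication members 3 rose, 1 fell and 10 had an estimate above 0, with a median of 0.06.

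The fall was deepest in Plk1, a kinase acting from mitotic entry to cytokinesis. It was at 10.3 and 11.6 CPM in the controls and at 4.13 and 4.67 CPM with the particle (log2 fold change -1.31 ± 0.18, adjusted p = 1.0e-05 in edgeR). Cenpf was at 36.9 and 29.0 CPM against 13.7 and 17.7 CPM (-1.07 ± 0.14). Ube2c, the ubiquitin-conjugating enzyme of the anaphase-promoting complex, was at 14.4 and 15.2 CPM against 7.37 and 7.37 CPM (-1.01 ± 0.16). Of the Ube2c exon bases 22.8% are shared with the antisense gene Tnnc2. In these 3 genes both particle libraries lay well below both controls.

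The drivers of mitotic entry fell as well. Cdk1 was at 14.98 and 13.97 CPM in the controls and at 7.25 and 8.55 CPM with the particle (log2 fold change -0.88 ± 0.15, adjusted p = 0.00012 in edgeR), and Ccnb1 at 19.3 and 16.5 CPM against 9.43 and 9.78 CPM (-0.90 ± 0.14). Top2a was at 71.3 and 57.8 CPM against 43.0 and 45.5 CPM (-0.55 ± 0.09). Kif20a fell by 1.24 ± 0.23 on the log2 scale, Cdc20 by 0.74 ± 0.15 and Racgap1 by 0.43 ± 0.09. Mki67 had groups that did not overlap, at 59.1 and 41.7 CPM against 30.6 and 35.0 CPM, but was not called (log2 fold change -0.62 ± 0.19, adjusted p = 0.077). It was called with DESeq2 (adjusted p = 0.038), without a filter and without either control library.

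The 8 uncalled mitotic members were Mki67, Melk, Ttk, Bub1b, Hmmr, Kif23, Nusap1 and Ndc80, a list given after the values were seen. Their log2 fold changes ran from -0.62 for Mki67 to -0.17 for Ndc80, an outer kinetochore subunit that was among the lowest members by CPM, at 2.91 and 3.13 CPM against 1.65 and 3.71 CPM. The number of calls depended on single libraries, for the mitotic members and over all genes alike. Leaving out 1 library at a time, the mitotic median log2 fold change ran from -0.73 to -0.46. With DESeq2 15 mitotic members were called, where 1410 of all 16388 genes fell, against 1976 in the main fit. The call was kept under every one of 12 alternatives by 12 members, Top2a, Cdk1, Ccnb1, Plk1, Cenpe, Cenpf, Kif20a, Tpx2, Ube2c, Cdc20, Prc1 and Racgap1.

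Of the 15 replication members 4 passed the test, where 22.1% of all genes were called in either direction. The count thus lies near the share of all genes. The 4 did not share a direction, with 3 rising and 1 falling, where 10% of all genes rose and 12.1% fell. Mcm6 fell, from 45.4 and 41.8 CPM to 32.8 and 30.1 CPM (log2 fold change -0.48 ± 0.09, adjusted p = 0.00027 in edgeR), while the helicase partner Mcm7 rose from 40.9 and 37.0 CPM to 53.6 and 44.8 CPM (0.33 ± 0.09, adjusted p = 0.012). Mcm6 and Mcm7 are subunits of the same helicase ring. The Mcm7 call was lost without the second control library or without the first particle library, and 12.6% of its exon bases are shared with other genes. Pcna rose from 67.0 and 65.9 CPM to 84.1 and 81.6 CPM (0.31 ± 0.07, adjusted p = 0.001). Prim1, the single uncalled member in set 1, rose here from 11.6 and 9.74 CPM to 17.7 and 16.1 CPM (0.66 ± 0.14, adjusted p = 0.0014). Other members had estimates between -0.28 for Tyms and 0.33 ± 0.14 for Rrm2. Rrm2 was at 41.8 and 29.6 CPM in the controls and at 42.2 and 47.8 CPM with the particle, so the groups did not overlap but the nearest libraries were close. Mcm2 (0.10 ± 0.15) and Mcm5 (-0.07 ± 0.13), which had risen in set 1, were not called.

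Other cell types showed a different accompaniment in set 2. Microglia markers summed to between 14.1 and 16.4 CPM in all 6 libraries, and 2 of 14 were abundant enough to be tested, neither of them called. Trem2 and Tyrobp had no count in both controls and both ApoE particle libraries. Astrocyte markers were at 2155 and 2024 CPM in the controls and at 1481 and 1647 CPM with the particle, with 8 of 12 fallen and 1 risen. Vessel and fibroblast markers were at 208 and 137 CPM against 51.7 and 83.6 CPM, with 6 of 9 fallen, and progenitor markers at 3329.7 and 3109.6 CPM against 2712 and 2959 CPM, with 4 of 11 fallen and 1 risen. Choroid plexus and ependymal markers were at 101 and 66.2 CPM against 67.5 and 87.6 CPM, with none of 5 called, and oligodendrocyte lineage markers at 142 and 139 CPM against 131 and 134 CPM, with 2 of 8 fallen. Neuron markers were at 6805 and 6842 CPM against 6348 and 6492 CPM, with 5 of 11 fallen and 1 risen. The part of these cells in the lower mitotic transcripts was not tested.

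The motif classes of the promoters can be set beside these changes as a description. In set 2 the 20 mitotic members with a CHR match had a median log2 fold change of -0.63 and the 6 without one -0.62. In set 1 the corresponding medians were 1.89 and 1.81. Among replication members, the 9 with an E2F match and the 3 without had medians of 1.39 and 1.25 in set 1 and of 0.05 and 0.10 in set 2. The 10 replication members with a CCAAT box and the 2 without one had medians of 1.21 and 1.38 in set 1 and of 0.09 and -0.14 in set 2. The 2 replication members with a CHR match and the 10 without one had medians of 0.99 and 1.35 in set 1 and of 0.22 and 0.02 in set 2. For mitotic members, the 20 with a CCAAT box and the 6 without had medians of 1.89 and 1.81 in set 1 and of -0.64 and -0.53 in set 2. The 5 with an E2F match and the 21 without had medians of 1.92 and 1.85 in set 1 and of -0.62 and -0.63 in set 2. Several of these subsets hold few genes, and none of the differences was tested.

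The reconstituted particle did not go with a called change in any member. Its summed replication level was 369.9 and 406 CPM and its summed mitotic level 477 and 539 CPM, and both ranges overlapped those of the set 2 controls. No member was called, as no gene was called in the whole table (0% of 16388 genes in edgeR); 776 genes had an unadjusted p below 0.05, none of them a member, and DESeq2 also called 0. The median log2 fold change was 0.01 for both classes, and mitotic members ranged from -0.27 to 0.44. Libraries of the groups did not overlap for 6 members that were higher and 5 that were lower, against 16.4% and 16.7% of all genes. Cdk1 was at 16.4 and 15.1 CPM against 14.98 and 13.97 CPM (0.14 ± 0.14), Ccnb1 at 16.1 and 19.4 CPM (0.01 ± 0.13), Top2a at 61.6 and 68.3 CPM (0.03 ± 0.09) and Mki67 at 50.04 and 59.4 CPM (0.13 ± 0.18). Pcna (0.06 ± 0.07), Rrm2 (0.05 ± 0.14), Mcm2 (-0.13 ± 0.16) and Mcm5 (-0.12 ± 0.13) were likewise not called. A p above the threshold does not show that these levels are equal.

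The 2 kinds of particle were compared directly. With the reconstituted particle as against the ApoE particle, 22 of 31 mitotic members were higher and none lower, where 11.4% of all genes were higher and 8.88% lower, 20.3% in either direction. The median log2 difference was 0.60, and 30 of 31 mitotic members did not overlap. Over both classes 32 of 46 members were higher without overlap, against 29.9% of all genes, and 6 were lower, against 29.1%. Plk1 differed by 1.21 ± 0.19 (edgeR adjusted p = 3.6e-05), Cenpf by 1.11 ± 0.14, Cdk1 by 1.01 ± 0.15, Ccnb1 by 0.91 ± 0.14, Mki67 by 0.76 ± 0.19 and Top2a by 0.57 ± 0.09. The Mki67 call was lost when scaled by library totals (adjusted p = 0.072), with the replicate block (adjusted p = 0.099) and without any 1 of the 4 particle libraries. Among replication members Mcm6 was higher with the reconstituted particle (0.49 ± 0.09), and Prim1 (-0.49 ± 0.14), Mcm7 (-0.38 ± 0.09) and Pcna (-0.26 ± 0.07) were lower. The Prim1 call was lost with DESeq2, without either reconstituted library and without the first ApoE particle library. The Mcm7 call was lost without the first library of either particle, and the Pcna call without the first ApoE particle library. Mcm2 (-0.23 ± 0.16), Mcm5 (-0.05 ± 0.13) and Rrm2 (-0.29 ± 0.14) were not called, though Rrm2 was without a filter, without either control library or with the 2 groups fitted alone, and Mcm2 without the second reconstituted library. This comparison uses the same ApoE particle libraries as the comparison with the controls, so the results are not independent. Under all 12 alternatives 10 of the 22 mitotic calls were kept, and 1 of the 4 replication calls, that of Mcm6. Leaving out 1 library at a time, the medians ran from 0.55 to 0.78 for mitosis and from -0.23 to 0.012 for replication.

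**Figure D4:**
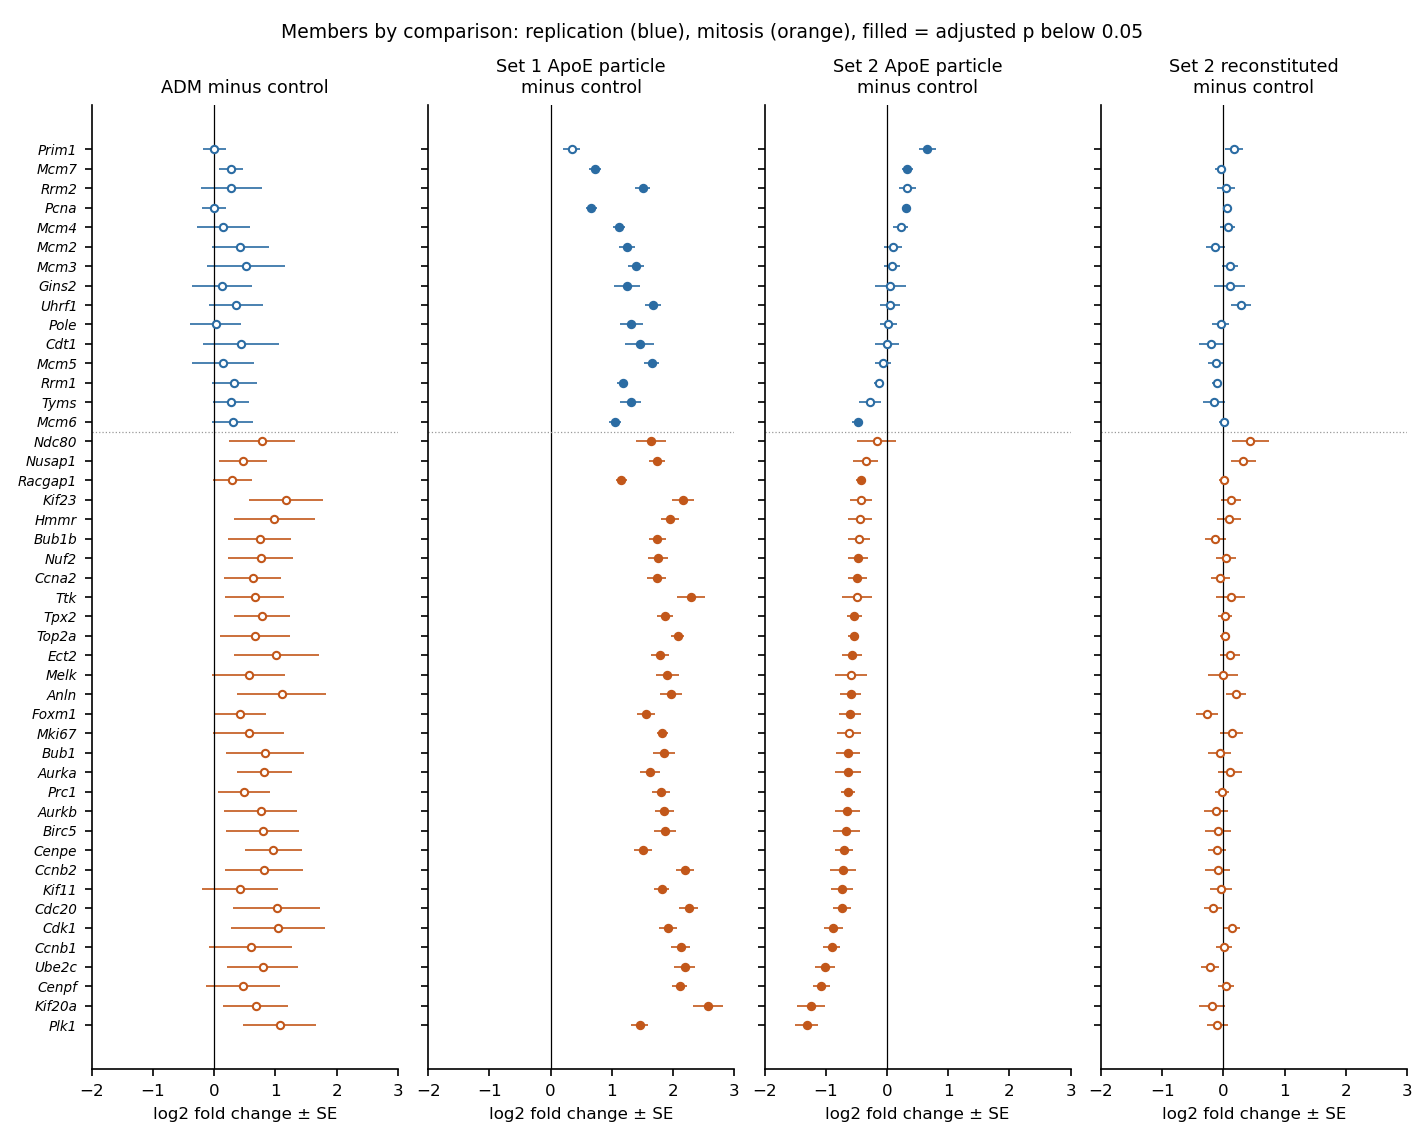
Log2 fold change with its standard error for each member in 4 comparisons; blue marks replication, orange mitosis, and filled points have an adjusted p below 0.05. Mitotic members lie to the right of 0 in set 1 (median 1.86) and to the left in set 2 (median -0.62), and no point is filled for ADM or the reconstituted particle.

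Whether the ApoE particle effect differed between the experiments was tested with an interaction term. The effect in set 2 minus that in set 1 was below 0 and called for 31 of 31 mitotic members, with a median log2 difference of -2.52 and a range of -3.84 to -1.61. It was below 0 and called for 14 of 15 replication members, with a median of -1.32. Of all 17098 genes tested, 16.4% were called in this direction and 14.8% in the other, 31.1% in either. Ccnb1 differed by -3.05 ± 0.21 (adjusted p = 1.2e-07), Cdk1 by -2.82 ± 0.21, Top2a by -2.65 ± 0.16 and Mki67 by -2.48 ± 0.20. Ube2c differed by -3.23 ± 0.24, Cdc20 by -3.02 ± 0.21 and Racgap1 by -1.61 ± 0.12. Among replication members Mcm5 differed by -1.75 ± 0.18, Mcm6 by -1.55 ± 0.13, Mcm3 by -1.34 ± 0.18, Rrm1 by -1.33 ± 0.13, Rrm2 by -1.20 ± 0.23, Mcm2 by -1.18 ± 0.17 and Pcna by -0.38 ± 0.10. Prim1 was the exception, with a difference of 0.29 ± 0.19 that was not called (adjusted p = 0.28). Each set has its own controls, and the labels do not say how the cultures or particle preparations of the sets differed, so these cannot be told apart from the set.

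With ADM the members could not be separated from the spread between libraries. The summed mitotic level was 395 and 973 CPM with ADM and 305 and 541 CPM in the controls, and the replication sum was 349 and 646 CPM against 418 and 423 CPM; both overlap. All 31 mitotic estimates were above 0, with a median log2 fold change of 0.76, and the replication median was 0.28. No member was called, and 0% of 16191 genes were called by edgeR. At an unadjusted p below 0.05 there were 1426 genes, none of them a member, and DESeq2 called 277 as higher and 56 as lower. For Aurka and Cenpe both ADM libraries were above both controls, 2 of 46 members, against 21% of all genes, and for no member were both below, against 19.5%.

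The panel genes show where the spread lies. Cdk1 was at 4.58 and 13.7 CPM in the controls and at 9.16 and 28.8 CPM with ADM (log2 fold change 1.04 ± 0.77), and Top2a at 42.2 and 78.1 CPM against 51.6 and 141 CPM (0.67 ± 0.57). Mki67 was at 35.7 and 60.4 CPM against 36.0 and 107 CPM (0.56 ± 0.59), and Ccnb1 at 8.09 and 21.2 CPM against 11.97 and 32.7 CPM (0.60 ± 0.67). In each of these genes the first ADM library lay below the second control and above the first, for Mki67 only just. Mcm2 (0.43 ± 0.47), Mcm5 (0.15 ± 0.51), Rrm2 (0.28 ± 0.50) and Pcna (-0.0057 ± 0.19) had standard errors larger than their estimates. Deviations within the 2 groups correlated by replicate number (r = 0.48), though the labels pair no samples. Without the second ADM library, and with both controls kept, the medians were -0.43 for replication and -0.11 for mitosis. Their sign thus changed with that library, in which the summed vessel and fibroblast markers also stood apart. For 8 of 10 tested vessel and fibroblast markers both ADM libraries lay above both controls, against 21% of all genes. For none of these markers did both lie below, against 19.5%. The part of those cells was not tested. Over the fits that left out 1 library each, the medians ran from -0.43 to 0.68 for replication and from -0.11 to 1.235 for mitosis.

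In the hippocampus the members were scarce. The replication members summed to 122 CPM with control shRNA and no FC, 149 CPM with control shRNA and FC and 117 CPM with ApoE shRNA and FC, and the mitotic members to 76.5, 109 and 83.9 CPM. Apoe itself, the shRNA target, was at 1697, 2797 and 1384 CPM in the same order, so the ApoE shRNA library held 0.495 of the level of its control with FC (exact 95% interval 0.487 to 0.502). Each group is 1 library, so no difference here has a replicate check, and all intervals cover counting error only. With FC the replication sum was 1.23 times (1.16 to 1.30) and the mitotic sum 1.42 times (1.32 to 1.52) that without FC. With ApoE shRNA they were 0.786 (0.743 to 0.832) and 0.773 (0.723 to 0.826) of the FC library with control shRNA, which is the same library as in the first ratio, so the ratios are not independent.

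Of the 44 members that reached 10 counts in 1 or both libraries of each ratio, 20 were at least 2-fold higher with FC, against 10.3% of all genes, and none was 2-fold lower, against 4.09%. With ApoE shRNA 14 of 44 were at least 2-fold lower, against 14.4% of all genes, and none was 2-fold higher, against 2.87%. Top2a had 18, 98 and 7 counts in the 3 libraries, in the order without FC, with FC and with ApoE shRNA, or 0.991, 5.51 and 0.37 CPM. Its ratio was 5.56 (3.34 to 9.77) with FC and 0.0672 (0.0263 to 0.144) with ApoE shRNA. Mki67 had 57, 116 and 62 counts, with ratios of 2.08 (1.501 to 2.91) and 0.503 (0.363 to 0.691). Uhrf1 had 10, 43 and 15 counts, with ratios of 4.39 (2.17 to 9.80) and 0.328 (0.169 to 0.603). These 3 genes were highest in the library with FC and control shRNA.

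Smaller counts left wide intervals. Cdk1 had 2, 10 and 3 counts, with ratios of 5.11 (1.09 to 47.9) and 0.282 (0.0499 to 1.10), and Ccnb1 8, 13 and 2 counts, with ratios of 1.66 (0.638 to 4.62) and 0.145 (0.0159 to 0.640). For Cdk1 with ApoE shRNA and for Ccnb1 with FC the interval includes 1. Mcm5 had 75, 103 and 76 counts, with ratios of 1.40 (1.03 to 1.91) and 0.695 (0.509 to 0.943). Mcm2 had 86, 107 and 101 counts, with ratios of 1.27 (0.948 to 1.71) and 0.888 (0.670 to 1.18), so neither difference exceeded counting error. Rrm2 had 16, 32 and 20 counts, with ratios of 2.04 (1.09 to 3.99) and 0.588 (0.319 to 1.06). Pcna had 714, 764 and 712 counts, with ratios of 1.09 (0.986 to 1.21) and 0.877 (0.791 to 0.973).

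The sums hide an uneven membership. Anln, an actin-binding protein of the cleavage furrow, had 562, 655 and 723 counts, or 30.9, 36.8 and 38.3 CPM, the largest share of the mitotic sum in each library. Leaving it out gave mitotic ratios of 1.58 with FC and 0.636 with ApoE shRNA. In the cultures Anln rose in set 1 (log2 fold change 1.96 ± 0.18), from 9.61 and 6.61 CPM in the controls to 29.4 and 38.0 CPM with the particle. Microglia markers summed to 504, 2472 and 379 CPM in the 3 hippocampus libraries, astrocyte markers to 7954, 10643 and 6915 CPM and progenitor markers to 207, 394 and 124 CPM. These marker sums were all highest in the FC library with control shRNA, as the cell cycle sums were, though Anln was not. Hippocampus sums of the oligodendrocyte, vessel, neuron and choroid plexus lists are not given here. The part of any cell type in the cell cycle sums was not tested.

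**Figure D5:**
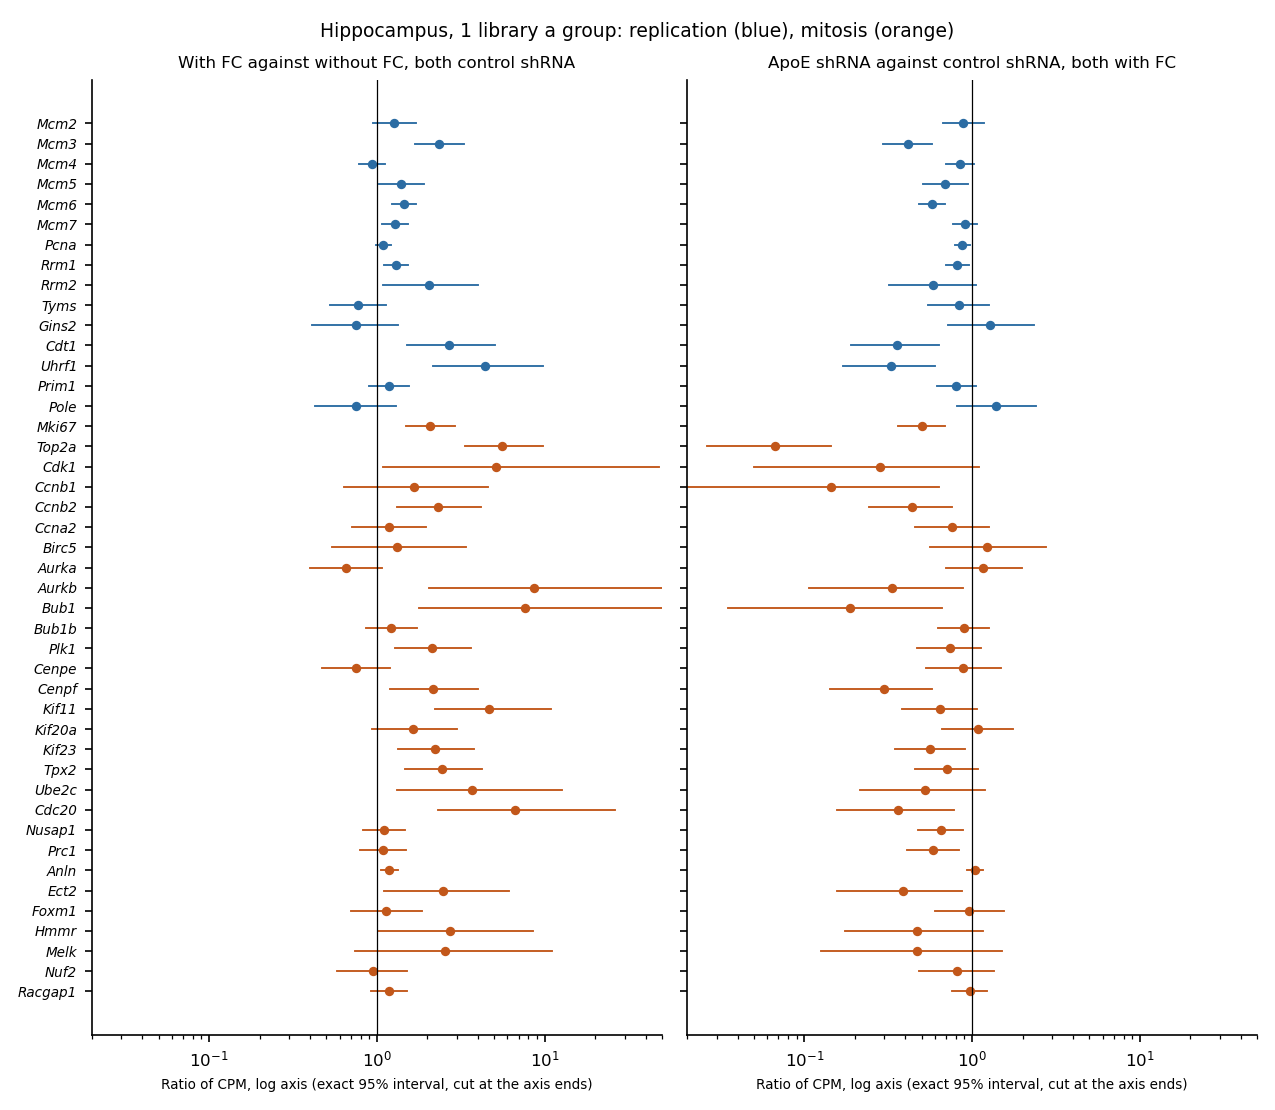
Ratio of CPM between hippocampus libraries (log axis) with exact 95% intervals for the 44 members that reached 10 counts, blue for replication and orange for mitosis; left, with FC against without FC under control shRNA, right, ApoE shRNA against control shRNA with FC. Top2a stands farthest from 1 on the right, at 0.0672, and intervals cover counting error only.

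The rest of the cell cycle machinery was read from lists that do not overlap the 46 members. In set 1, where 18.9% of all genes rose and 17.4% fell, of 18 origin licensing and firing genes 10 rose and none fell, among them Mcm10 (log2 fold change 1.56 ± 0.19), the licensing inhibitor Gmnn (1.98 ± 0.25) and the helicase loader Cdc6 (1.57 ± 0.23). Of 21 tested polymerase, clamp loader and nucleotide genes 14 rose, including the salvage enzyme gene Tk1 (1.42 ± 0.16). Of 9 G1 cyclins and kinases 8 rose, led by the D-type cyclins Ccnd1 (1.86 ± 0.10), Ccnd2 (1.12 ± 0.09) and Ccnd3 (0.88 ± 0.11). Among partners of the mitotic members risers were 13 of 14 kinetochore and checkpoint genes such as Spc25 (2.32 ± 0.13) and Knl1 (2.30 ± 0.17), 10 of 13 condensin and cohesin genes such as Smc2 (1.47 ± 0.11) and Smc4 (1.16 ± 0.10), and 14 of 15 spindle kinesin and cytokinesis genes such as Aspm (2.06 ± 0.12), Kifc1 (1.88 ± 0.15) and Kif18b (2.42 ± 0.17).

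Regulators were more mixed in set 1. Of 13 E2F and RB family genes 7 rose, led by the late repressors E2f8 (2.06 ± 0.21) and E2f7 (1.70 ± 0.20) and the pocket protein Rbl1 (1.45 ± 0.18). Of 6 MuvB and B-Myb genes 2 rose, Mybl2, which encodes B-Myb, by 1.87 ± 0.20 and Lin52 by 0.55 ± 0.12. CDK inhibitors, which hold the cycle back, had 4 of 7 risen, including Cdkn2c (1.68 ± 0.18) and Cdkn1a (0.82 ± 0.10), and 1 fallen, Cdkn2d (-0.38 ± 0.11), a call lost when scaled by library totals and without the second particle library. Of 10 p53 targets 7 rose and 1 fell, with Ccng1 at 1.503 ± 0.11, Trp53inp1 at 1.31 ± 0.09 and Phlda3 at 1.30 ± 0.12. Median log2 fold changes were 0.75 for the inhibitors and 0.79 for the p53 targets, against -0.0059 for all genes tested.

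In set 2 few of these genes passed the test with the ApoE particle, and several of the counts lie near the 12.1% of all genes that fell and the 10% that rose. The spindle and cytokinesis partners moved with the mitotic members, 6 of 15 falling and none rising, including the citron kinase Cit (-0.84 ± 0.10), Aspm (-0.80 ± 0.14) and Cdca8 (-0.73 ± 0.15). Of 14 kinetochore genes 2 fell, among them the centromeric histone gene Cenpa (-0.89 ± 0.19), and of 13 condensin and cohesin genes 2 fell, Ncapd2 (-0.44 ± 0.07) and the separase gene Espl1 (-0.57 ± 0.20). Upstream of S phase, 3 of 18 licensing genes rose, the helicase gene Recql4 (1.25 ± 0.24), Gins3 (0.76 ± 0.26) and Orc5 (0.36 ± 0.12). Of 22 polymerase and nucleotide genes 3 rose, Dut (0.37 ± 0.10), Pold2 (0.35 ± 0.12) and the clamp loader subunit Rfc3 (0.35 ± 0.11), while 1, Rpa1, fell (-0.23 ± 0.07). None of 13 E2F and RB genes was called, with E2f5 at 0.36 ± 0.16 and Tfdp2 at -0.20 ± 0.11.

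Of 7 CDK inhibitors 2 rose and 1 fell in set 2, where 10% of all genes rose and 12.1% fell. The median log2 fold change of the 7 inhibitors was -0.16. Cdkn1a, which encodes the CDK inhibitor p21, rose by 0.34 ± 0.06 and Cdkn1b, which encodes p27, by 0.22 ± 0.05, and Cdkn2d fell (-0.24 ± 0.08). Of 10 p53 targets 5 rose and none fell, with Sesn2, a stress-induced regulator of mTORC1, at 1.57 ± 0.07, the cell death gene Bbc3 at 0.89 ± 0.12 and Phlda3 at 0.50 ± 0.11. Of 6 MuvB genes 2 rose, Lin52 (0.41 ± 0.13) and Rbbp4 (0.15 ± 0.05). Of 9 G1 cyclins and kinases 1 rose, Ccne2 by 0.56 ± 0.18, and none fell, with a list median of -0.06. Calls for Espl1, Orc5, Gins3, Rfc3, Pold2 (named only to complete its count), Lin52, Rbbp4, Ccne2, Rpa1 and Cdkn2d were lost with DESeq2 and on leaving out single control or particle libraries, those for Dut and Phlda3 without 1 control library each, while those for Cit, Aspm, Cdkn1a and Sesn2 were kept under all 12 alternatives.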

How the data were processed

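RNA from each sample was sequenced after library preparation with an Illumina RNA kit, per the labels' protocols. The deposited values are whole-number read counts per gene from mm10; the tools HISAT2 2.1.0, HTSeq 0.6.0 and Bowtie2 2.2.3 are listed, with no roles, in the submitters' processing notes, and strand use is not given in the sources used here. In set 2, 1489 genes, none a member, had no value in the control and ApoE particle columns and entered as 0 there (0.229% of reconstituted particle counts). CPM was computed from library totals.

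Folds came from edgeR 4.0.16 (R 4.3.3): genes filtered by filterByExpr, TMM scaling, robust quasi-likelihood F tests and Benjamini-Hochberg adjustment over all genes tested, threshold 0.05. The standard error is the absolute log2 fold change over the square root of F. ADM and set 1 were fitted alone, the 3 set 2 groups together, and the interaction over set 1 and set 2. DESeq2 1.42.0, other scalings, no filter, a replicate block and leaving out each library were alternatives. In no group did the 2 libraries agree within sampling noise (chi-square per degree of freedom 2.63 to 68.1). Hippocampus ratios carry exact binomial intervals (scipy 1.17.1, 95%). Promoters came from RefSeq (GRCm38.p6) and exon overlaps from GENCODE M21.

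The members and all lists were chosen with earlier results of these data known. Members named in each comparison were Mcm2, Mcm5, Pcna, Rrm2, Mki67, Top2a, Cdk1 and Ccnb1, up to 5 called members per class by lowest adjusted p, and any called against its class; each other cell cycle list gave up to 3 called genes by the same order, or else up to 2 uncalled ones. Other members were named after their values were seen. Some genes that this rule selects are not reported here.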

Additional observations from a re-analysis of the deposited data

Results flagged for a closer look

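The ApoE particle effect differed between set 2 and set 1 by the interaction term for 14 replication members and for 31 mitotic members. In each case it was lower in set 2, as for 16.4% of all genes tested. Of the mitotic members, 23 rose in set 1 and fell in set 2. They are 23 of the 31 that rose in set 1 and all 23 that fell in set 2. Of all genes tested 18.9% rose in set 1 and 12.1% fell in set 2, and the share that did both is not given here. Each of the 23 was also called by the interaction term, which uses the same libraries and so adds no separate support.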

How the results depend on the processing

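All 14 replication and 31 mitotic calls in set 1 were kept under each of 9 alternatives. With the ApoE particle in set 2, 12 of 23 mitotic calls were kept under all 12 alternatives, and DESeq2 called 15. Leaving out single libraries gave 12 to 25 mitotic and 3 to 6 replication calls, the lowest mitotic count without the first particle library. In those fits 931 to 1854 of all genes rose and 1366 to 1982 fell, of 17116 to 17203 tested. For the reconstituted against the ApoE particle the ranges were 10 to 23 mitotic and 1 to 5 replication calls. The direction of most replication calls turned where 1 was called. Of all genes, 1311 to 1843 were higher and 930 to 1517 lower in these fits. For the interaction 31 of 31 mitotic and 11 of 14 replication calls were kept under all 13 alternatives. Its medians ran from -2.63 to -2.36 and from -1.42 to -1.14 in the same order. For ADM they ran from -0.11 to 1.235 and from -0.43 to 0.68. For the reconstituted particle they ran from -0.087 to 0.17 and from -0.11 to 0.076. Without Anln the hippocampus mitotic ratios were 1.58 and 0.636. The cause of these shifts was not tested.

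The replicate numbers correlated between groups at r = 0.48 for ADM and at -0.08 to 0.04 elsewhere, and pair no samples by label. With the replicate block, no ADM member was called (all genes 373 higher and 92 lower, against 0 and 0). Set 1 kept 14 and 31 (all genes 3331 higher and 3055 lower). Set 2 with the ApoE particle had 4 and 21 (all genes 1436 and 1812), and the reconstituted against the ApoE particle 4 and 19 (all genes 1667 and 1307). The block turned ADM Mcm5 to -0.00058. Scaling by library totals turned ADM Pcna to 0.016 and reconstituted Ccnb1 to -0.0080. DESeq2 called 2461 genes as higher and 2304 as lower in set 1 and 1089 and 1410 in set 2 with the ApoE particle; ADM without a filter gave 98 and 30.

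Leaving out 1 library turned only uncalled log2 values among those named, and their ranges follow. For ADM they were Mcm2 -0.43 to 0.95, Mcm5 -0.78 to 0.69, Pcna -0.25 to 0.18, Rrm2 -0.65 to 0.82, Mki67 -0.48 to 1.14, Top2a -0.28 to 1.21, Cdk1 -0.057 to 2.03 and Ccnb1 -0.35 to 1.44. For the ApoE particle in set 2 they were Mcm2 -0.011 to 0.23, Mcm5 -0.21 to 0.062, Ndc80 -0.86 to 0.29 and Nusap1 -0.67 to 0.075. For the reconstituted particle they were Mcm2 -0.45 to 0.13, Rrm2 -0.17 to 0.31, Mki67 -0.088 to 0.40, Top2a -0.11 to 0.18 and Ccnb1 -0.13 to 0.13. For the reconstituted against the ApoE particle they were Mcm2 -0.55 to 0.026 and Mcm5 -0.18 to 0.094. The low ends for ADM came without its second library. In the hippocampus 2 members stayed under 10 counts, and single libraries give no replicate check.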
